A study of Mus musculus with 5 samples.

Results

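Neutrophils carry several kinds of granule that form one after another as the cell matures. Primary (azurophil) granules are filled first, in myeloid progenitors and promyelocytes, and secondary granules later. The 6 genes described here encode cargo of the primary granule or are switched on in the same early myeloid cells. Mpo encodes myeloperoxidase, a heme enzyme that makes hypochlorous acid. Elane (neutrophil elastase), Prtn3 (proteinase 3) and Ctsg (cathepsin G) encode serine proteases of 1 family, Srgn encodes serglycin, the proteoglycan core that holds cationic proteases inside granules, and Ms4a3 encodes a membrane protein whose gene marks granulocyte-monocyte progenitors (GMP). The genes were chosen by name among the 24046 gene symbols of the table. All 6 were found, and all 6 passed the filter on low values.

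The libraries came from hematopoietic stem cells (HSCs) of CD45.1 congenic recipient mice that had been given bone marrow with homozygous floxed Syncrip alleles. Syncrip encodes an RNA-binding protein, and its floxed alleles are cut by Cre recombinase from the Mx1-Cre transgene, whose promoter responds to interferon and is not specific to HSCs. WT libraries (genotype Syncrip flox/flox, Mx1 Cre-, n = 3) and KO libraries (Syncrip flox/flox, Mx1 Cre+, n = 2) both came from mice injected with the interferon inducer pIpC 6 weeks after transplantation, and cells were taken 3 weeks after pIpC and 9 weeks after transplantation. The sort gate was CD45.2+, Lin-, Sca1+, cKit+, CD150+ and CD48-. Neither the age of the mice nor whether libraries pooled animals was given in the labels. WT 1 to 3 and KO 2 and 3 carry the numbers of the labels, and nothing in the labels says that libraries came from separate animals, so p-values measure only the spread between these libraries.

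Depth was 12539599 to 22779536 reads, with the lowest totals in the KO libraries. Syncrip, the deleted gene, had 1440 to 1944 normalized reads in the WT libraries, 294 in KO 2 and 343 in KO 3 (log2 fold change -2.43 with SE 0.22, limma adjusted p = 0.0352). Markers of HSCs (Kit, Ly6a, Slamf1, Procr, Mecom, Hlf, Fgd5 and Mllt3) were all present in every library. Summed over the list, genes that neutrophils switch on after the primary granule stage took more reads than the HSC markers, although the lineage cocktail of the sort included Gr1, a neutrophil antigen. The 11 such genes in the table (among them Ngp, Ltf, Camp, Lcn2, S100a8 and S100a9) took 4.39% to 5.27% of the reads in WT, 3.16% in KO 2 and 1.25% in KO 3. Ngp was the gene with the most reads in WT 1 and WT 3. The part that late neutrophil RNA has in the levels of the primary granule genes was not tested, and in bulk samples fewer cells of a type and less RNA per cell cannot be told apart. Adipocyte genes took 0.142% of reads in KO 2 and at most 0.00214% elsewhere.

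The 6 genes lie on 4 chromosomes (GENCODE M21, GRCm38, matched by symbol; the submitters' processing notes name mm10, the same assembly). Prtn3 (chromosome 10, 79874476 to 79883174, plus strand) and Elane (chromosome 10, 79886247 to 79888215, plus strand) are neighbours, with 3072 bases between the annotated ends. Srgn is on the same chromosome (62493833 to 62527451, minus strand). Mpo lies on chromosome 11 (87793581 to 87804413, plus strand), Ctsg on chromosome 14 (56099881 to 56102574, minus strand) and Ms4a3 on chromosome 19 (11629496 to 11640851, minus strand). All are protein-coding genes.

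Promoters of these genes are textbook targets of PU.1, C/EBP, RUNX and MYB factors, so the short sequences that these factors prefer were looked for on both strands in the RefSeq promoters (GRCm38.p6, 250 bases before to 50 after each start; the RefSeq starts of Mpo, Elane, Prtn3 and Srgn lie downstream of the GENCODE gene starts given above). All 6 genes had a promoter in the table, and Srgn had 2. The PU.1-type sequence GAGGAA was found in 5 of the 6 genes (all but Srgn, and in Ms4a3 after its start), where 28.3% of the 32851 promoters in the table hold it. The MYB-type sequence CAACNG was found in 4 of the 6 (Elane, Prtn3, Ctsg and Srgn; 35.0% of all promoters), the RUNX-type TGTGGT in 2 (Ctsg and Srgn; 16.8%) and the C/EBP-type TTGCNNAA in 1 (Ms4a3, after its start; 10.8%). The first 4 windows of 30 bases that follow are shown because the neighbouring protease genes Elane and Prtn3 have both sequences in the same order and at similar distances from their starts, and those of Ctsg and Mpo are given for comparison. They are written 5′ to 3′ on the strand of the gene with the matched letters in capitals.
Elane PU.1-type, chr10:79886215-79886244, plus strand, 85 bases before the start: tcgtgtcccaggGAGGAAgtagggctgtgg
Prtn3 PU.1-type, chr10:79879560-79879589, plus strand, 95 bases before the start: ccaaactggaagGAGGAAgtgggacccaca
Elane MYB-type, chr10:79886249-79886278, plus strand, 51 bases before the start: gatggggcaataCAACGGcctctggttcca
Prtn3 MYB-type, chr10:79879599-79879628, plus strand, 56 bases before the start: ttagccactgttCAACGGctcccggcagag
Ctsg MYB-type, chr14:56102650-56102679, minus strand, 93 bases before the start: gcaaggacacggCAACTGtgtgggacacca
Mpo PU.1-type, chr11:87793548-87793577, plus strand, 224 bases before the start: tgtggagagagaGAGGAAgttgcctttgtc
A match of letters is a description and does not show that a factor is bound.

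How abundant these transcripts were in the sorted cells was asked first. Together the 6 genes took 1.76%, 2.61% and 2.30% of the reads in WT 1, WT 2 and WT 3, and 2.43% and 1.51% in KO 2 and KO 3. KO 2 thus lay within the WT range and KO 3 under it. Mpo was the gene with the most or the second most reads in each of the 5 libraries (1.06% to 1.82% of reads in WT), and Elane ranked between 4 and 9. Prtn3 ranked between 18 and 44, and Ctsg between 163 and 579. Srgn ranked between 93 and 241, and Ms4a3 between 214 and 371 in all libraries but KO 3, where its rank was 3243.

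Divided by the length of the longest annotated transcript, Mpo and Elane stayed on top of the order of WT means, while Ctsg moved above Srgn. Per kilobase, Mpo ranged from 63873 to 125083 normalized reads over the 5 libraries and Elane from 72668 to 108990.2, so these neighbours in the order overlapped. Prtn3 followed at 22544 to 35403 per kilobase, below every value of Elane. Ctsg (5506 to 10955 per kilobase) lay below every value of Prtn3. Srgn (4964 to 7842) overlapped with Ctsg above it, and Ms4a3 (1035 to 6284) overlapped with Srgn.

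Then KO and WT libraries were compared, to ask whether loss of Syncrip went with a change of the granule genes. None of the 6 genes was called (limma, adjusted p under 0.05 over 13661 genes), and edgeR and DESeq2 on recovered reads also called none. At an unadjusted p under 0.05 there was 1, Ms4a3 (27.8% of all genes tested). Over all genes tested, limma called 0.00732%, edgeR 0.0146% and DESeq2 19.0%. Without KO 2 limma called 2 of the 6 (Ctsg and Ms4a3), with KO 3 as the lone KO library and 3560 genes called in all (26.6% of those tested in that fit). For none of the 6 did both KO values lie beyond all WT values, whereas 47.1% of all genes tested were separated in this way. That count was 1 to 3 of the 6 when a library was left out (1 without WT 1, 2 without WT 2, 1 without WT 3, 3 without KO 2 and 2 without KO 3), and the share of all genes was then 52.5% to 78.3%. The groups overlapped for every one of the 6, and 4 had a log2 fold change under 0 and 2 above 0 (median -0.25, against 0.020 over all genes tested).

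In WT 1, WT 2 and WT 3, Mpo had 193847, 343979.6 and 301744 normalized reads, and it had 286876 in KO 2 and 175652 in KO 3. KO 2 lay between WT libraries, while KO 3 was the lowest of the 5 and WT 1 close to it. WT libraries averaged 279857 ± 77422 (SD, n = 3) and KO libraries 231264 ± 78648 (SD, n = 2), which gave a fold change of -0.28 on the log2 scale (with SE 0.34, 95% interval -1.05 to 0.50, limma adjusted p = 0.616). WT libraries alone differed by 1.77-fold, and the interval of the difference reaches from 0.482-fold to 1.41-fold. With quantile normalization the sign turned (0.075), and without KO 3 it also turned (0.077).

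Elane, the protease gene with the most reads, had 71505, 100807 and 90287 normalized reads in WT 1, WT 2 and WT 3. KO 2 had 107246 and KO 3 had 71897. KO 2 was the highest library and KO 3 lay just above WT 1, so the KO libraries stood at both ends of the WT range. On the log2 scale KO and WT differed by 0.019 (with SE 0.26, 95% interval -0.57 to 0.61, limma adjusted p = 0.968), and its sign differed between alternatives. Its interval leaves room for levels from 0.672-fold to 1.53-fold of WT.

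Prtn3, next to Elane on the chromosome, was the steadiest of the 6 in WT, with 23423, 23107 and 25116 normalized reads in WT 1, WT 2 and WT 3. KO 2 had 36288 and KO 3 had 23797. Only KO 2 stood apart, above all WT libraries, and KO 3 lay among them. WT libraries averaged 23882 ± 1080.2 (SD, n = 3) and KO libraries 30042 ± 8833 (SD, n = 2), with a log2 fold change of 0.30 (with SE 0.22, 95% interval -0.19 to 0.80, limma adjusted p = 0.388). Without KO 2 the log2 difference was -0.0042, so the excess rested on that library.

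Ctsg had 9943, 9266 and 10977 normalized reads in WT and 10774 in KO 2, but 5517 in KO 3. The KO 2 value was inside the narrow WT range, and KO 3 stood at 0.548 of the WT mean. Ctsg had a log2 fold change of -0.38 (with SE 0.27, 95% interval -0.997 to 0.236, limma adjusted p = 0.380). Leaving out KO 2 gave -0.86 (limma adjusted p = 0.0142, with KO 3 as the lone KO library, assumed to vary like WT), and leaving out KO 3 gave 0.10.

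Ms4a3 had the widest fitted difference of the 6. WT 1, WT 2 and WT 3 had 8705, 6554 and 9444 normalized reads, KO 2 had 6914 and KO 3 had 1555. KO 2 was again within the WT range, and KO 3 was at 0.189 of the WT mean. WT libraries averaged 8234 ± 1501 (SD, n = 3) and KO libraries 4235 ± 3789 (SD, n = 2). On the log2 scale the fold change was -1.31 (with SE 0.52, 95% interval -2.49 to -0.13, unadjusted p = 0.0333 and adjusted p = 0.148 by limma). DESeq2 gave -0.96 (adjusted p = 0.381) and edgeR -0.97 (adjusted p = 0.266). Without KO 2 it was -2.39 (limma adjusted p = 0.00199, 1 KO library), and without KO 3 it was -0.24 (limma adjusted p = 0.665). The size of the Ms4a3 difference was thus set by KO 3, where 5.01% of all genes tested stood at least 4-fold below the WT mean.

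Srgn, which mast cells, platelets and cytotoxic lymphocytes express as well, had 13542, 8573 and 11078 normalized reads in WT and 9561 and 9064 in KO 2 and KO 3. Both KO values lay close together and inside the WT range. The log2 fold change was -0.22 (with SE 0.21, 95% interval -0.71 to 0.27, limma adjusted p = 0.515). Genes of those other Srgn-expressing cells did not all stand to one side of WT in KO 3. Megakaryocyte and platelet genes took 0.138% of its reads (0.0287% to 0.0596% elsewhere) and cytotoxic granule genes 0.00644% (at most 0.000768% elsewhere). The 9 mast cell and basophil genes took 0.107% (0.0482% to 0.0649% elsewhere), but 0.0778% was Gata2, a transcription factor that stem cells express as well, and the list without Gata2 took 0.0294% in KO 3, 0.0199% in KO 2 and 0.0294% to 0.0391% in WT. limma called 0 genes of these 3 lists, and DESeq2 called 19.0% of all genes. Of the 6 megakaryocyte and platelet genes DESeq2 called 4, all higher, and of the 3 cytotoxic granule genes tested it called 2, both higher. Of the 7 mast cell and basophil genes tested it called Cpa3, Ms4a2 and Hdc lower in KO and Gata2 higher. Gata2 had a log2 fold change of 2.03 without KO 2 and of 0.55 without KO 3. Cpa3, Ms4a2 and Hdc were lowest in KO 3. Prss34, a basophil protease gene, was instead highest in KO 3 (2974 normalized reads, against 200 to 1808 in WT and 381 in KO 2), and Mcpt8 and Fcer1a lay within the WT range there. Tpsb2 was listed at 0 in every library. Their part in the Srgn level was not tested.

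**Figure D1:**
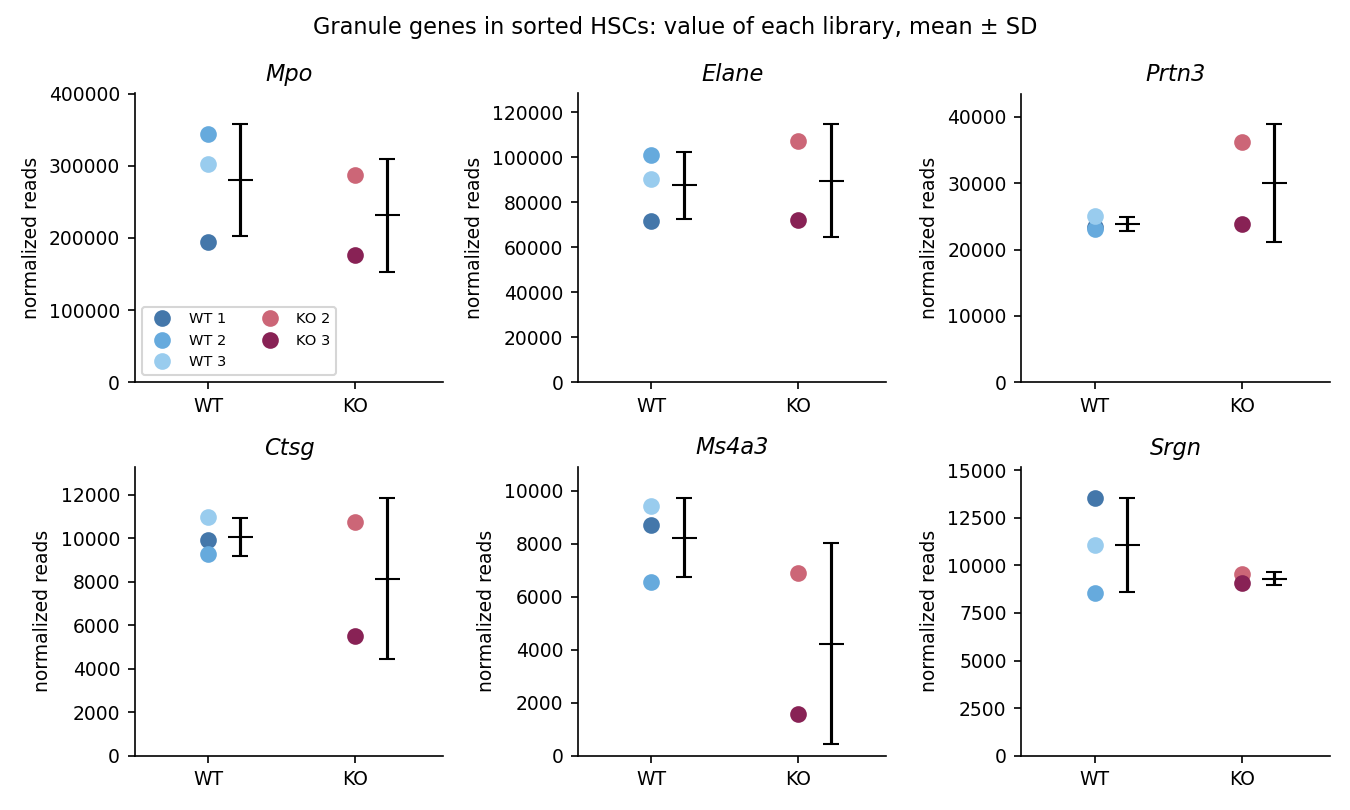
Normalized read counts of the 6 granule genes (vertical axes, from 0) in WT (3 libraries, blue) and KO (2 libraries, red); points are libraries and the black marks the mean with its SD. In each panel at least 1 KO point falls inside the WT range, and KO 3 lies under KO 2 for all 6 genes.

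**Figure D2:**
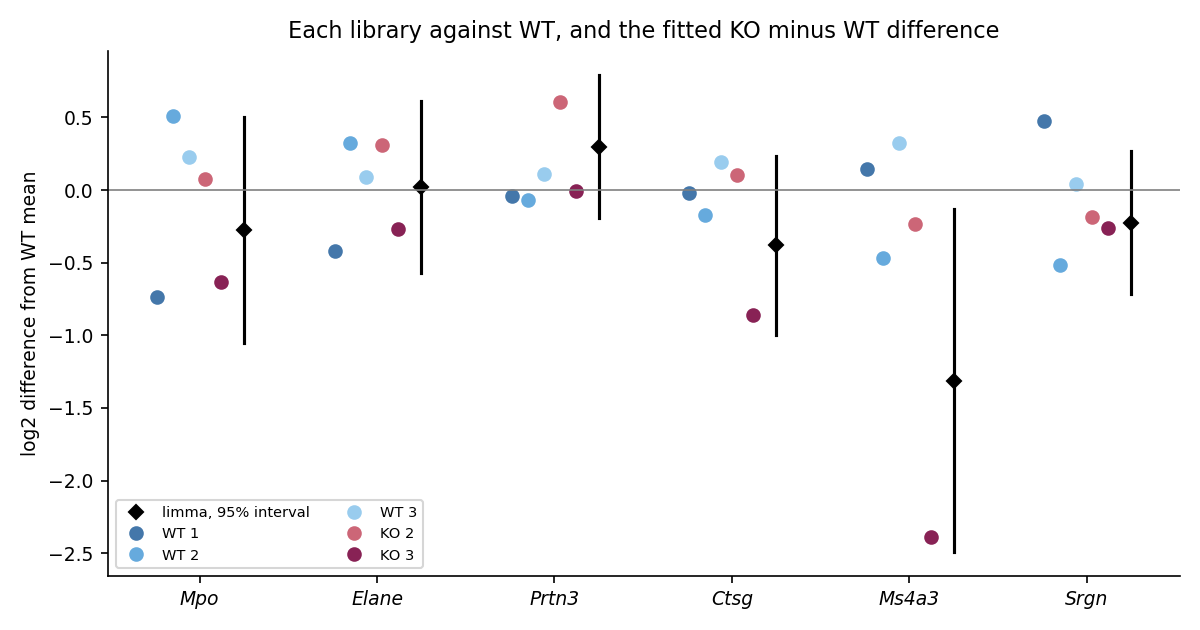
Log2 difference of each library from the WT mean (coloured points; a WT library is set against the other WT libraries) and the limma KO minus WT log2 fold change with its 95% interval (black). The intervals of 5 genes include 0, and that of Ms4a3 runs from -2.49 to -0.13 with KO 3 at -2.39.

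Each KO library was also set against the WT range. In KO 2, 2 of the 6 genes (Elane and Prtn3) lay above all WT values and 0 below, where 32.8% and 30.9% of all genes tested did so. In KO 3, 3 of the 6 (Mpo, Ctsg and Ms4a3) lay below all WT values and 0 above, where the shares of all genes tested were 38.3% and 40.0%. The counts of members above WT in KO 2 and below WT in KO 3 are near these shares. The median log2 difference of the 6 genes from WT was 0.090 in KO 2 and -0.45 in KO 3, and the WT libraries stood between -0.12 and 0.15 against each other.

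Ratios between members within a library do not depend on scaling between libraries. Elane stood at 0.369, 0.293 and 0.299 of Mpo in WT 1, WT 2 and WT 3 and at 0.374 and 0.409 in KO 2 and KO 3, so both KO libraries were above all WT libraries by a small margin over WT 1. Prtn3 behaved alike, at 0.0672 to 0.121 of Mpo in WT, 0.126 in KO 2 and 0.135 in KO 3. Ctsg, in contrast, was at 0.0269 to 0.0513 of Mpo in WT and at 0.0376 and 0.0314 in KO, within the WT range. Ms4a3 was at 0.0191 to 0.0449 of Mpo in WT, at 0.0241 in KO 2 and at 0.00885 in KO 3. These ratios were not tested.

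The other genes of the primary granule were counted next, from lists made for this comparison. Over the 114 tested genes of all lists, those of other cell types included, limma called 0 with all libraries. Without KO 2 it called 52 of the 111 then tested, where 26.6% of all genes were called. Without KO 3 it called 4 of 113 (0.0820% of all genes), and these 4 were adipocyte genes that stood high in KO 2. Of the other primary granule proteins it called 3 without KO 2, all lower, and 0 without KO 3. Of 8 other primary granule proteins, 7 were tested and 0 were called by limma. DESeq2 called 2, both lower, of which Lyz2 is described here (19.0% of all genes). With both KO values below all WT values were 4 of the 7 and above them 0, and the background is 23.2% below and 23.9% above. Lyz2, which encodes lysozyme, had 70244, 86086 and 105356 normalized reads in WT and fewer in the KO libraries, 58506 and 23385 (log2 fold change -1.22 with SE 0.37, limma adjusted p = 0.0972, DESeq2 adjusted p = 0.0212). It stood at -1.88 without KO 2 and at -0.56 without KO 3. Lysozyme is also a product of later granules and of macrophages. Prss57, a serine protease of primary granules related to Elane, did not share this: its values were 2671, 3406 and 4096 in WT and 4412 and 2557 in the KO libraries (log2 fold change 0.0082 with SE 0.27, limma adjusted p = 0.986). Bpi did not pass the filter, since its highest value was 4.11 normalized reads.

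Granule proteins must be folded, clipped and sorted, and serglycin must receive chondroitin sulfate chains. Of 14 genes for these steps limma called 0 and DESeq2 called 7, of which 5 were lower and 2 higher (19.0% of all genes tested were called by DESeq2). Both KO values lay below all WT values for 5 of the 14 and above them for 3 (23.2% and 23.9% of all genes). Without KO 2 limma called 5 of the 14, 3 lower and 2 higher (26.6% of all genes in that fit), and without KO 3 it called 0. Canx, the ER chaperone calnexin that assists myeloperoxidase folding, had values of 14859, 11307 and 17112 in WT against 9592 and 5501 in KO (log2 fold change -0.97 with SE 0.27, limma adjusted p = 0.0891, DESeq2 adjusted p = 0.0149). It stood at -1.37 without KO 2 and at -0.57 without KO 3. Calr, which encodes its soluble partner calreticulin, stood at -0.37 on the log2 scale (limma adjusted p = 0.198) with both KO values below all WT values. Ctsc, the peptidase that activates elastase, proteinase 3 and cathepsin G, had 899 to 1046 normalized reads in WT and 670.2 and 665 in KO (log2 fold change -0.56, limma adjusted p = 0.123, DESeq2 adjusted p = 0.0481).

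Of 4 subunits of the AP-3 adaptor, which sorts cargo to granules and lysosomes, limma called 0. Ap3m1 stood at -0.93 on the log2 scale (limma adjusted p = 0.0816, DESeq2 adjusted p = 0.00464) and Ap3b1 at -0.35, both with KO values below all WT values. Ap3s1 stood at -0.95 (limma adjusted p = 0.129, DESeq2 adjusted p = 0.0487), at -1.36 without KO 2 and -0.54 without KO 3, and its groups overlapped. Ap3d1 stood at 0.28 with overlapping groups, and DESeq2 called neither Ap3b1 nor Ap3d1. Among the enzymes that build chondroitin chains, Chpf had 104, 227 and 122 normalized reads in WT and 463 and 867 in KO (log2 fold change 2.15 with SE 0.43, limma adjusted p = 0.0815, DESeq2 adjusted p = 0.000261). Chsy1, its partner in the polymerase, had a log2 fold change of 0.95 (DESeq2 adjusted p = 0.00468). Xylt2, which adds the first sugar of the chain, stood at 0.92 with both KO values above all WT values, and DESeq2 did not call it (adjusted p = 0.0813). Its log2 fold change was 1.26 without KO 2 and 0.58 without KO 3. The other 3 enzymes of the chains, Xylt1 (0.49), Chst12 (0.17) and Chst11 (-0.25), overlapped between groups.

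Inhibitors of the granule proteases had a median log2 fold change of -0.73 over 6 genes (-0.29 in KO 2 and -0.94 in KO 3), where limma called 0 and DESeq2 called 2 (19.0% of all genes). For 4 of the 6, both KO values lay below all WT values (23.2% of all genes). Without KO 2 limma called 3 of the 6, all lower (26.6% of all genes in that fit), and without KO 3 it called 0. Serpinb1a, the cytosolic inhibitor of elastase, proteinase 3 and cathepsin G, had 12935, 11009.97 and 14794 normalized reads in WT and 7679 and 2257 in the KO libraries (log2 fold change -1.62 with SE 0.43, limma adjusted p = 0.0853, DESeq2 adjusted p = 0.0120). It stood at -2.51 without KO 2 and at -0.74 without KO 3. Slpi, a secreted inhibitor of elastase and cathepsin G, had 1378, 1459 and 1616 in WT against 779 and 589 in KO (log2 fold change -1.13 with SE 0.21, limma adjusted p = 0.0815, DESeq2 adjusted p = 0.000180). Slpi was therefore at 0.0145 to 0.0193 of Elane in WT and at 0.00727 and 0.00820 in KO. Cst7, an inhibitor of cathepsin C, had 1414 to 1761 normalized reads in WT, 1234 in KO 2 and 468 in KO 3. It stood at -1.07, at -1.77 without KO 2 and at -0.37 without KO 3. Serpina3g overlapped between groups (log2 fold change 0.50).

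The listed transcription factors of the granule genes, which include the repressor Gfi1 and so are not all activators, had 4 of the 9 under 0, 5 above 0 and a median of 0.075. limma called 0 and DESeq2 called 1, under the 19.0% of all genes. This was Cebpb (1874, 3239 and 2204 normalized reads in WT, 4576 and 4316 in KO, log2 fold change 0.90, DESeq2 adjusted p = 0.0144). Cebpa (445 to 726 in WT, 1024 and 788 in KO) and Spi1, which encodes PU.1 (6011 to 7612 in WT, 8541 and 10184 in KO), also had both KO values above all WT values, at log2 fold changes of 0.57 and 0.45, so that 3 of the 9 did (23.9% of all genes). Cebpe, needed for the secondary granule program, was at 0.075 and Gfi1, a repressor needed for neutrophil fate, at -0.16, both with overlapping groups. Myb (-0.14, with both KO values below all WT values), Runx1 (0.46) and Irf8 (-0.27) had limma adjusted p of 0.391 or more. The sign of several rested on 1 KO library. Runx1 stood at 1.10 without KO 2 (limma adjusted p = 0.00774) and at -0.18 without KO 3, and Irf8 at 0.092 and -0.63. Cebpe stood at -0.17 and 0.32 and Gfi1 at -0.53 and 0.21 in the same fits.

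**Figure D3:**
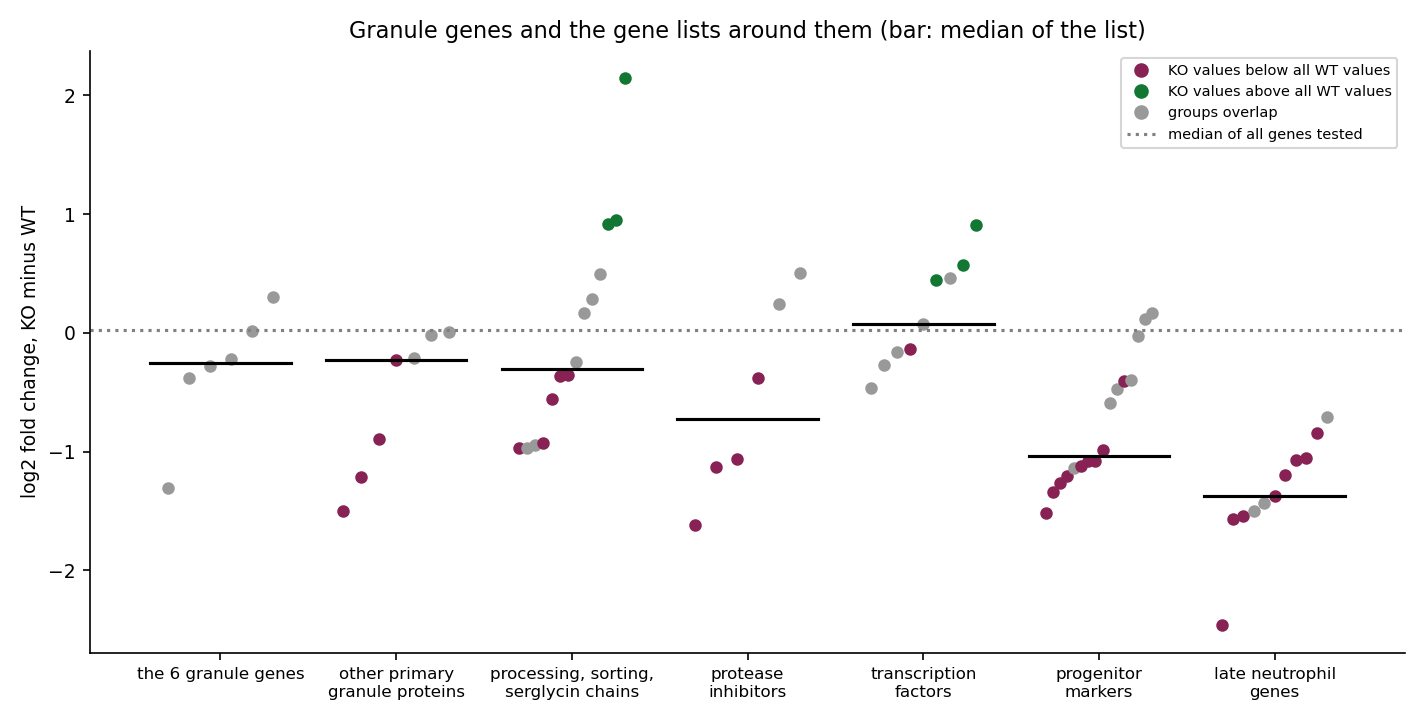
Log2 fold change (KO minus WT, limma) of each tested gene of the granule set and of 6 lists around it, with the list median as a black bar and the median of all genes tested (0.020) as a dotted line. All 6 granule genes are grey because their groups overlap, whereas 8 of the 11 late neutrophil genes have KO values below all WT values (over all genes tested, 47.1% were separated in either direction and 23.2% below).

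Markers of the cells that make primary granules, and genes of the stage that follows, were set beside the 6 genes. Of 16 granulocyte-monocyte progenitor markers limma called 0 and DESeq2 called 5, all lower (19.0% of all genes in either direction), with a median log2 fold change of -1.04. Without KO 2 limma called 11 of the 16, all lower (26.6% of all genes in that fit), and without KO 3 it called 0. For 9 of the 16, both KO values lay below all WT values (background 23.2%). Fcgr3 (2397 to 3723 in WT, 1959 and 806 in KO), Cd48 (601 to 768 in WT, 459 and 191 in KO) and Igsf6 (5300 to 6459 in WT, 3684 and 1083 in KO) were among those called by DESeq2. Cd48 encodes the antigen that the sort gate excludes. Csf2ra (0.17) and Cd34 (-0.026) overlapped between groups. Nkg7 stood at 0.11 with KO 2 above all WT values (9010 normalized reads, against 5794 to 6486) and KO 3 below them (4890.2). Per library the median of these markers was -0.27 in KO 2 and -1.33 in KO 3.

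The late neutrophil genes had 11 of 11 log2 fold changes under 0, with a median of -1.37, and 8 of the 11 had both KO values below all WT values (23.2% of all genes). limma called 0 of them and DESeq2 called 7 (19.0% of all genes). Without KO 2 limma called 10 of the 11, all lower (26.6% of all genes in that fit), and without KO 3 it called 0. Ngp had 277744, 303577 and 355453 normalized reads in WT and 195888 and 73449 in the KO libraries (log2 fold change -1.37 with SE 0.40, limma adjusted p = 0.0904, DESeq2 adjusted p = 0.0105), at -2.08 without KO 2 and -0.67 without KO 3. Mmp8, a collagenase of the later granules, had 1447 to 2058 in WT against 521 and 207 in KO (log2 fold change -2.46, limma adjusted p = 0.0815, DESeq2 adjusted p = 1.0e-06), at -3.13 without KO 2 and -1.80 without KO 3. Their median against WT was -0.67 in KO 2 and -1.74 in KO 3, where the 6 primary granule genes stood at 0.090 and -0.45. Summed reads of the late genes were 2.60, 1.68 and 2.29 times those of the 6 primary granule genes in WT 1, WT 2 and WT 3 and 1.30 and 0.830 times in KO 2 and KO 3. Both KO libraries were thus below the lowest WT library in this ratio, which was not tested.

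Summed levels of genes of other cell types, and of the HSCs themselves, were set beside the granule genes. They give shares of reads and not numbers of cells. Monocyte and macrophage genes took 0.0210% to 0.0279% of reads in WT, 0.0244% in KO 2 and 0.00765% in KO 3, and 2 of the 9 tested had both KO values below all WT values, a share close to the 23.2% of all genes. B cell genes took 0.00245% to 0.00312% in all libraries, with Pax5 listed at 0 in 3 of the 5. HSC gate and identity genes took 0.0614% to 0.101% in WT, 0.0699% in KO 2 and 0.112% in KO 3, and erythroid genes 0.104% to 0.201%, lowest in KO 3. Kit had the most reads of the HSC list in every library. The median log2 difference of the HSC genes from WT was -0.14 in KO 2 and 1.03 in KO 3. WT 1, WT 2 and WT 3, each set against the other WT libraries, stood at 1.09, -0.018 and -0.86, so WT libraries also differed widely in these genes. The parts of other cells in the granule gene levels were not tested.

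**Figure D4:**
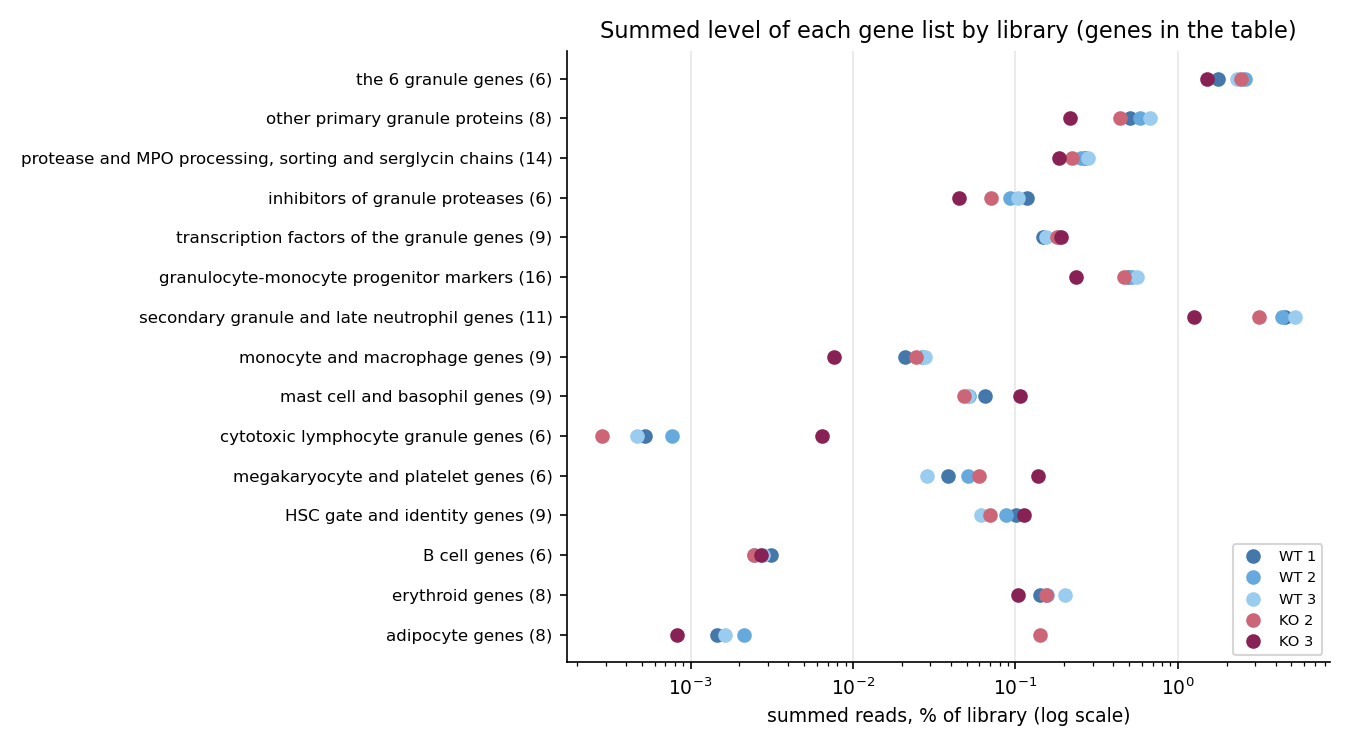
Summed reads of each gene list as a percent of the library (horizontal axis, log scale; the number of genes in the table stands in brackets), with 1 point per library. The 6 granule genes span 1.51% to 2.61%, with KO 2 among the WT libraries, while late neutrophil genes run from 1.25% in KO 3 to 5.27% in WT 3.

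The genes whose profile over the 5 libraries was most like that of Mpo were found by the root-mean-square difference of log2 values centred on each gene's mean, among 10550 tested genes with a mean of at least 100. Dtx4 (0.0394), Zranb3 (0.0417), Sema4a (0.0439), Atf6 (0.0481) and Hk3 (0.0569) were closest, while Mpo itself varied by 0.379 around its mean on the same scale. Hk3, the hexokinase of myeloid cells, had 7204, 12282 and 10556 normalized reads in WT and 10677 and 6890.4 in KO. Like Mpo, it was lowest in KO 3 and WT 1 and highest in WT 2. Of the other granule genes Elane was the most like Mpo (0.190, place 235), and Ms4a3 the least (0.787, place 9266).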

How the data were processed

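The submitters' processing notes name STAR, featureCounts, DESeq2 and mm10, with no versions; annotation and strand setting were not given in the sources used here. The authors deposited normalized signal for 24046 gene symbols, read counts scaled by 1 size factor for each library. All values of a library were whole multiples of 1 step (0.833 to 1.52; tolerance 0.01 reads), so dividing by it gave whole reads for 100% of values. The authors' own comparison (log2 fold changes and p-values) was not used. Because values are normalized, limma (version 3.58.1, R 4.3.3; lmFit, eBayes with a mean-variance trend) was run on log2(value + 1) for 13661 genes that reached 10 in 2 or more libraries, with all 5 libraries and no covariate. Fold changes are on this scale, which understates those of low genes. Significance was a Benjamini-Hochberg adjusted p under 0.05 over all genes. DESeq2 (version 1.42.0; the tool of the study) and the quasi-likelihood test of edgeR (version 4.0.16) were run on the recovered reads as alternatives, and adjusted p-values that DESeq2 left out stayed out. Fits were run on reads simulated with a common dispersion, to check that the sign of set changes was recovered. The spread between the KO libraries was not simulated, so this does not show how the fits perform on these data. Every pair of libraries differed by more than sampling noise (lowest chi-square divided by its degrees of freedom, 34.1).

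The members and gene lists were chosen with earlier results of these data known. Genes named are the 6 members, genes of the 14 lists (127 genes, 125 in the table, 114 tested) and the 5 most like Mpo. Lengths are those of the longest GENCODE M21 transcript, matched by symbol for all 6 members. Values of some listed genes are not reported here.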

Additional observations from a re-analysis of the deposited data

How the results depend on the processing

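The 6 granule genes were refitted under 16 alternatives each. The sign of Ms4a3 and Srgn was negative under all 16, from -2.39 to -0.24 for Ms4a3 and from -0.40 to -0.066 for Srgn. The number of the 6 called stayed at 0 except without KO 2, where it was 2 (Ctsg -0.86, Ms4a3 -2.39), with KO 3 alone standing for KO. Mpo turned to 0.075 with quantile normalization, and Elane turned to -0.016 with array weights and to -0.12 with the replicate block. Over the fits that each left out 1 library, log2 fold changes ran from -0.63 to 0.077 for Mpo, -0.27 to 0.31 for Elane, -0.0042 to 0.60 for Prtn3, -0.86 to 0.10 for Ctsg, -2.39 to -0.24 for Ms4a3 and -0.40 to -0.066 for Srgn. The number with KO values beyond all WT values, 0 with all libraries, was 1 to 3 in those fits (an alternative chosen after seeing the data), where 52.5% to 78.3% of all genes tested were separated.

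Over all genes, limma's 1 call became 2 with a pseudocount of 10, 0 without the filter on low values, 8 without the mean-variance trend, 0 with array weights, 2 with edgeR, 2291 with DESeq2 and 6 with the replicate block. Leaving out 1 library gave 0 to 3560 calls. For the listed genes, 0 calls became 39 with DESeq2, 1 with the replicate block and 0 to 52 without 1 library. The cause was not tested. No label says that a replicate number marks a shared animal or day, so the numbers were not taken as pairs. The block changed no call among the 6 genes. Deviations of libraries that share a number had a correlation of -0.059 for number 2 and -0.18 for number 3. With 2 KO libraries the deviations of KO 3 are those of KO 2 with the sign turned, so these correlations cannot show whether the numbers are pairs.

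There were 2 KO libraries, of which KO 3 had the fewest reads, and the interval for Mpo runs from 0.482-fold to 1.41-fold. The intervals given are from limma and rest on the spread between libraries.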
